A study of Mus musculus with 6 samples.

Results

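The genes described here are 10 feedback inhibitors of MAP kinase signalling. They comprise 6 dual specificity phosphatases, Dusp1, Dusp2, Dusp4, Dusp5, Dusp6 and Dusp10, and 4 inhibitors of the Sprouty and Spred family, Spry1, Spry2, Spred1 and Spred2. They were taken by name from a table of 14777 genes, and all 10 names were present once and passed the low-count filter. The RNA came from regulatory T cells (Treg) made in vitro by stimulating naive CD4 T cells, and the labels give C57BL/6 as the mouse strain and state that most cells were FOXP3+. In the FOXP3 ΔE2 group (3 libraries) the Foxp3 gene carried a deletion of exon 2, and in the FOXP3 FL group (3 libraries) the full-length form was present. Cells of both groups had been grown for 3 days on coated anti-CD3 (1 µg/ml) with anti-CD28 (1 µg/ml), human TGFβ (5 ng/ml) and human IL-2 (20 ng/ml). The labels give neither animal age nor the origin of each replicate (1 mouse or several, 1 culture or several). P-values therefore reflect only how far libraries of a group differed, which may be technical variation. As a model this is limited to Treg induced in a dish, not Treg taken from tissue.

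Signals from the T cell receptor pass through Ras, Raf and MEK to the MAP kinase ERK, and in parallel to the stress kinases p38 and JNK. Dual specificity phosphatases switch these kinases off by removing phosphate from both the threonine and the tyrosine of the activation loop. Sprouty and Spred proteins act further upstream, on Ras and Raf. Many of these inhibitors are themselves induced by ERK signalling and so form negative feedback loops, which makes their RNA a common readout of pathway output in T cells.

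Library totals were 14122086 to 15658111 counts in ΔE2 and 13307155 to 16140432 in FL. Foxp3 RNA checks the labels only in part, since the gene-level count covers all exons: it was 436, 403 and 335 CPM (counts scaled to a common library size, with TMM) in ΔE2 replicates 1 to 3, against 447, 397 and 337 CPM in FL replicates 1 to 3. The T cell and Treg markers Cd3e, Cd4, Foxp3, Il2ra, Ctla4, Ikzf2 and Tnfrsf18 were all detected, with summed levels of 8081 to 10354 CPM in ΔE2 and 7984 to 8762 CPM in FL. Of these 7 only Cd4 passed the test (log2 fold change 0.49, edgeR quasi-likelihood test, adjusted p = 0.0438). The authors' mapping table set ΔE2 replicates 1 and 2 apart, with 75.4% and 75.5% of reads assigned to genes, against 69.3% in ΔE2 replicate 3 and 69.3% to 71.5% in FL. Junction reads likewise made up 31.3% and 31.0% in ΔE2 replicates 1 and 2, against 26.7% in ΔE2 replicate 3 and 26.4% to 28.1% in FL.

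Per kilobase of counted gene length, Dusp2 was the most abundant of the 10 RNAs in both groups. Dusp2 encodes a nuclear phosphatase known as PAC-1 that is induced in activated T cells. Its level averaged 25.1 ± 2.84 CPM per kb in ΔE2 and 27.0 ± 1.51 CPM per kb in FL (SD, n = 3 each). Next in ΔE2 came Dusp6 (17.3 ± 3.96 CPM per kb) and Dusp5 (9.23 ± 1.2 CPM per kb), and next in FL came Dusp5 (14.6 ± 1.5 CPM per kb) and Dusp6 (10.9 ± 0.86 CPM per kb). Per kb, the libraries of Dusp5 and Dusp6 did not overlap within either group. In FL this rests on the division by length: undivided CPM was 31.1 to 36.2 for Dusp6 and 33.1 to 40.2 for Dusp5. Below them stood Spry1, Dusp4, Spred2, Dusp10, Spred1 and Dusp1, between 6.88 and 1.99 CPM per kb on average in ΔE2 and between 6.13 and 2.32 CPM per kb in FL. Neighbours whose libraries overlapped were Dusp5 with Spry1 and Dusp4 with Spred2 in ΔE2. In FL they were Spry1 with Dusp4, Dusp4 with Spred2, Spred1 with Dusp10 and Dusp10 with Dusp1. Spry2 came last in both groups, at 0.48 ± 0.098 CPM per kb in ΔE2 and 0.38 ± 0.13 CPM per kb in FL.

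**Figure D1:**
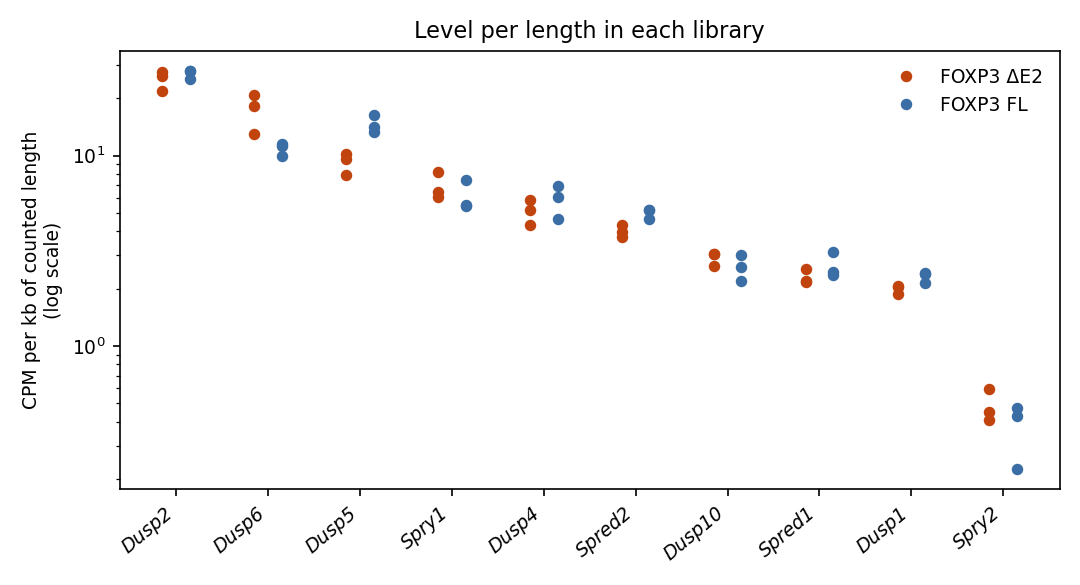
Level of each RNA in CPM per kb of counted length (log axis), 1 point per library, ΔE2 in red left of FL in blue, genes ordered by mean level. Dusp2 is highest and Spry2 lowest in both groups, and per kb Dusp6 and Dusp5 change places: Dusp6 averages 17.3 in ΔE2 and 10.9 in FL, Dusp5 9.23 in ΔE2 and 14.6 in FL. Their order in FL depends on the division by counted length.

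Dusp5 encodes a phosphatase of the nucleus that acts on ERK and holds inactive ERK there. The gene (ENSMUSG00000034765, mm10 chromosome 19, 53529109 to 53542431, plus strand) was lower in ΔE2. Its RNA stood at 23.8, 19.5 and 25.2 CPM in ΔE2 replicates 1 to 3, against 40.2, 34.9 and 33.1 CPM in FL replicates 1 to 3. All 3 ΔE2 libraries lay below all 3 FL libraries. The log2 fold change was -0.66 ± 0.13 (SE; 95% interval -0.93 to -0.38), that is 0.634 times the FL level (edgeR quasi-likelihood test, adjusted p = 0.00566). ΔE2 replicate 2 had the lowest value, and without it the log2 fold change was -0.56 and the call was lost (adjusted p = 0.0546). Within ΔE2 the Dusp5 level was lowest at the highest share of reads assigned to genes and highest at the lowest share, in replicate 3. Within FL it was lowest at the lowest share (69.3%, replicate 3) and highest in replicate 1 (70.3%). The part of that share was not tested. Without ΔE2 replicate 3 the log2 fold change was -0.74 (adjusted p = 0.0116). In bulk RNA, fewer cells with the transcript and less transcript per cell cannot be told apart. The reads carry no strand information, and 547 exon bases of Dusp5 are shared with the gene AC137853.2 on the opposite strand (GENCODE M21).

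Dusp6 encodes a phosphatase of the cytoplasm, known as MKP-3, that is also selective for ERK. The gene (ENSMUSG00000019960, chromosome 10, 99263231 to 99267489, plus strand) was higher in ΔE2. Its RNA stood at 57.3, 64.8 and 40.6 CPM in ΔE2 replicates 1 to 3, against 36.2, 35.1 and 31.1 CPM in FL replicates 1 to 3. The groups did not overlap, but ΔE2 replicate 3 lay close to the FL libraries while ΔE2 replicates 1 and 2 stood well above them. The log2 fold change was 0.67 ± 0.15 (SE; 95% interval 0.36 to 0.98), or 1.59-fold (edgeR quasi-likelihood test, adjusted p = 0.0133). The call was lost without ΔE2 replicate 2 (log2 fold change 0.52, adjusted p = 0.114) and without FL replicate 3 (0.60, adjusted p = 0.0615). The share of reads assigned to genes, given above, follows the same order of libraries within ΔE2, with replicate 2 highest and replicate 3 lowest. Within FL Dusp6 was highest in replicate 1 (share 70.3%), the share was highest in replicate 2 (71.5%), and both were lowest in replicate 3. The part of the share in the Dusp6 value was not tested. Without ΔE2 replicate 3, whose share was like that of FL, the Dusp6 log2 fold change was 0.83 (adjusted p = 0.00258).

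Dusp5 and Dusp6 moved in opposite directions, so their sequences upstream of the start site are shown side by side. Both are RefSeq promoters (GRCm38.p6, the assembly of mm10), cut so that they end before the start of either the RefSeq gene or the gene in the count table. The Dusp5 stretch is chr19:53528895-53529108 (plus strand) and the Dusp6 stretch chr10:99262981-99263230 (plus strand). Capitals mark matches to the motifs searched on both strands.
Dusp5: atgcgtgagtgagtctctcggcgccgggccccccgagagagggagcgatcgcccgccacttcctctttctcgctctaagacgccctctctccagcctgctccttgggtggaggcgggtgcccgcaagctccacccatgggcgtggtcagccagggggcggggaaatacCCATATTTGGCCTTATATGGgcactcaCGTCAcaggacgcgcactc
Dusp6: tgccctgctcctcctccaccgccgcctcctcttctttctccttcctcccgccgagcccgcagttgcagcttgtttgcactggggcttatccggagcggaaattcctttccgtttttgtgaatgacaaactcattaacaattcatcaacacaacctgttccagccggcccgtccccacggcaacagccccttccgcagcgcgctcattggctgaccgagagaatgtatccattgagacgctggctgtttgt

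The Dusp5 stretch holds a pair of adjacent matches to the CArG box, the element bound by serum response factor. They lie at -82 to -73 and -72 to -63, counted from the RefSeq start site with -1 as the base before it. Of the 9 genes with a RefSeq promoter (250 bases before to 50 after the start), Dusp5 alone held a CArG match, which 1.63% of all 32817 promoters hold. The search for this motif was added after the sequence had been seen. The core of the cAMP response element, TGACG, was present in 4 of the 9 (Dusp1, Dusp2, Dusp5 and Spred2), against 20.8% of all promoters, and the full palindrome TGACGTCA was present in Dusp1, against 1.79% of all. The shorter motif is part of the longer one. In Dusp2 the match lay after the start site. The forkhead motif TGTTTAC (3.65% of all promoters), the AP-1 motif TGANTCA (7.81%) and the ETS motif CCGGAAG (8.86%) matched none of the 9 windows. The Dusp6 stretch matched none of these motifs. The 9 promoters were rich in G and C, with 57.0% to 72.3% against a median of 52.7% over all promoters. They held 17 to 40 copies of the base pair step CG, against a median of 7. The motif TGACG contains CG, so its share over all promoters is not a baseline of like composition.

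The ratio of Dusp6 to Dusp5 within a library needs no scaling between libraries. Per length it was 1.90, 2.62 and 1.27 in ΔE2 replicates 1 to 3, against 0.710, 0.794 and 0.742 in FL replicates 1 to 3. Per length, Dusp6 thus exceeded Dusp5 in all 3 ΔE2 libraries and fell short of it in all 3 FL libraries. The order in FL depends on the counted lengths (3132 bases for Dusp6, 2473 for Dusp5). Undivided, FL replicates 1 to 3 had 538, 590 and 439 reads of Dusp6, against 598, 587 and 467 of Dusp5. The pair was chosen after its values were seen, so the ratio is given without a test. The summed level of the 6 phosphatase RNAs was 64.2, 59.3 and 61.4 CPM per kb in ΔE2 replicates 1 to 3, against 65.1, 65.5 and 59.2 CPM per kb in FL replicates 1 to 3, and here the groups overlapped.

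**Figure D2:**
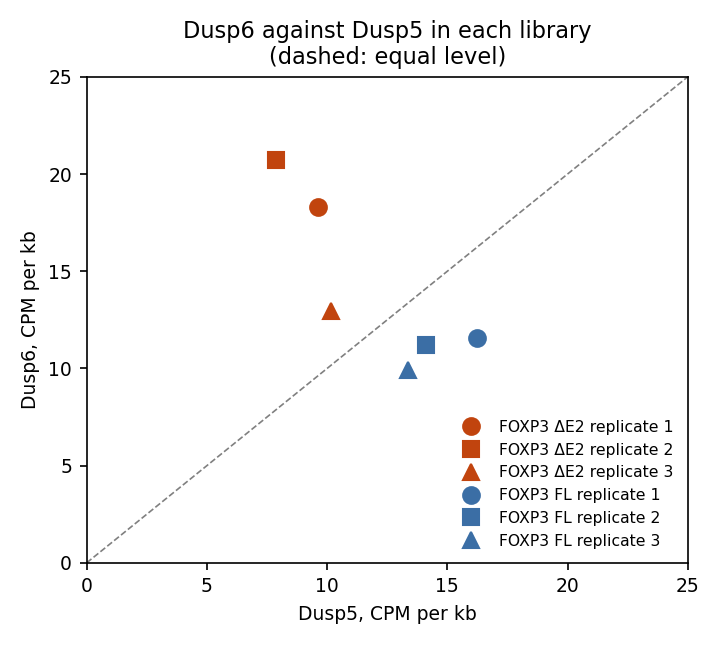
Dusp6 against Dusp5, both in CPM per kb, 1 symbol per library (ΔE2 red, FL blue; circle, square and triangle for replicates 1, 2 and 3); the dashed line marks equal levels. The 3 ΔE2 libraries lie above the line, with ratios of 1.27 to 2.62, and the 3 FL libraries below it, with ratios of 0.710 to 0.794.

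The other 4 phosphatases did not pass the test. Dusp2 (chromosome 2, 127336159 to 127338376) had 52.2, 43.8 and 54.7 CPM in ΔE2, against 55.9, 55.8 and 50.6 CPM in FL. The groups overlapped, and the log2 fold change of -0.11 had a 95% interval of -0.36 to 0.14 (edgeR quasi-likelihood test, adjusted p = 0.650). With 1 library left out the value ranged from -0.18 to -0.02. Dusp4 (chromosome 8), which encodes the nuclear phosphatase MKP-2 acting on ERK and JNK, had 14.1, 11.8 and 16.1 CPM in ΔE2, against 12.8, 19.0 and 16.7 CPM in FL. Its values overlapped widely, with an interval of -0.56 to 0.14 (edgeR quasi-likelihood test, adjusted p = 0.502). With 1 library left out the value ranged from -0.35 (without FL replicate 1) to -0.07 (without FL replicate 2).

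Dusp1 and Dusp10 encode phosphatases with a preference for p38 and JNK. Dusp1 (chromosome 17, minus strand), the early-induced nuclear enzyme MKP-1, had 5.49, 5.03 and 5.59 CPM in ΔE2, against 5.78, 6.54 and 6.44 CPM in FL. Each ΔE2 library lay below each FL library, but the gap was small: the log2 fold change was -0.22 ± 0.19 (SE; interval -0.62 to 0.18), and it did not pass (edgeR quasi-likelihood test, adjusted p = 0.544). Dusp10 (chromosome 1), which encodes MKP-5, had 9.30, 7.98 and 9.24 CPM in ΔE2, against 7.86, 9.10 and 6.65 CPM in FL. These groups overlapped (log2 fold change 0.17, interval -0.22 to 0.55; edgeR quasi-likelihood test, adjusted p = 0.645). The Dusp10 value was 0.06 without FL replicate 3 and 0.28 without FL replicate 2.

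**Figure D3:**
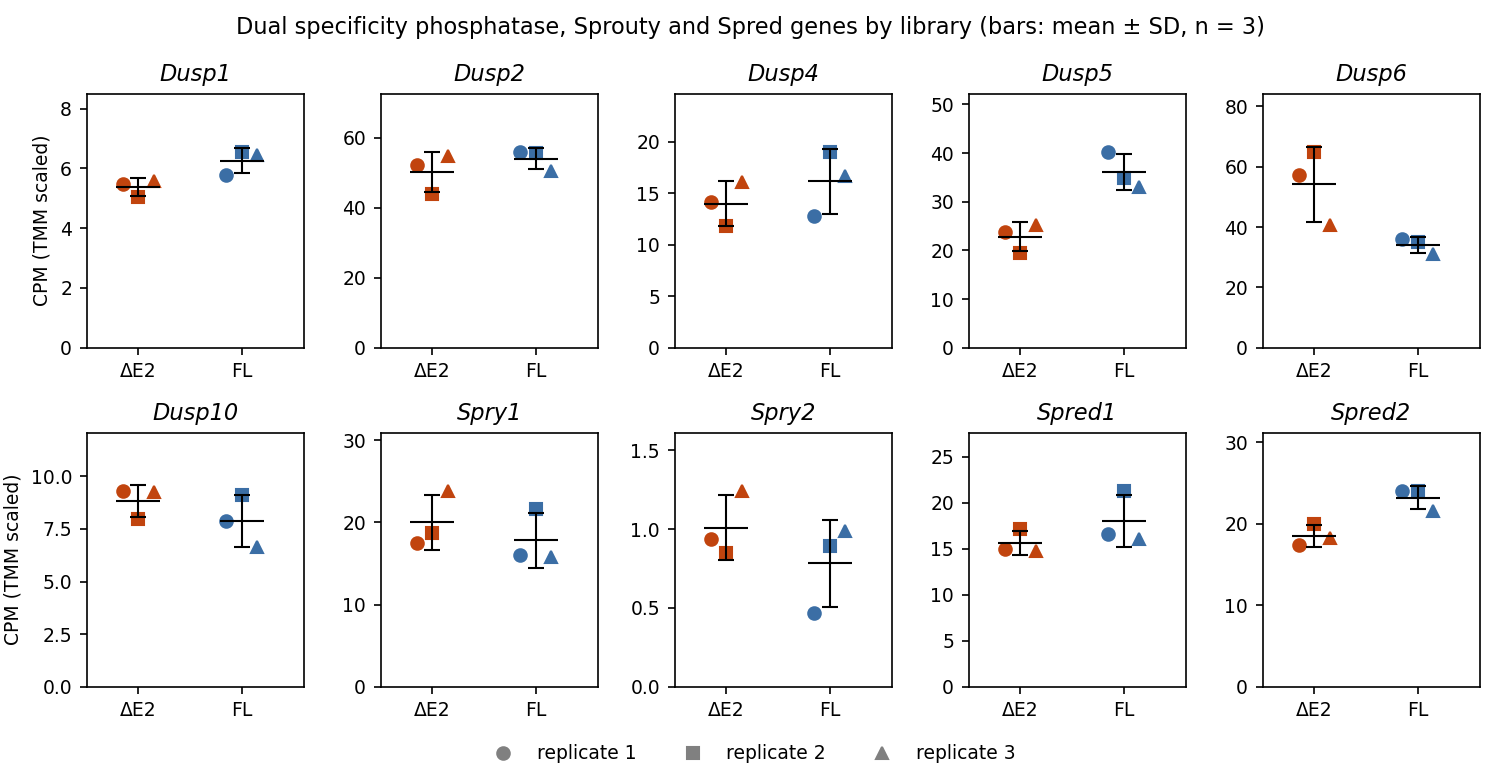
CPM of each of the 10 genes in each library, ΔE2 left of FL, with symbols for the replicate number and black bars for mean ± SD (n = 3 each); each panel has its own axis from 0. The groups are apart for Dusp5 (19.5 to 25.2 in ΔE2, 33.1 to 40.2 in FL), Dusp6 (40.6 to 64.8 in ΔE2, 31.1 to 36.2 in FL), Spred2 and Dusp1, and overlap for the other 6 genes.

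None of the 4 Sprouty and Spred genes passed the test. Spred proteins bind Ras and the Ras inhibitor neurofibromin and block the activation of Raf. Spred2 (ENSMUSG00000045671, chromosome 11, 19924375 to 20024026, plus strand) had 17.3, 20.0 and 18.3 CPM in ΔE2, against 23.9, 24.0 and 21.5 CPM in FL. The ΔE2 libraries all lay below the FL libraries. The log2 fold change was -0.32 ± 0.13 (SE; interval, not adjusted for the number of genes, -0.60 to -0.05), with an unadjusted p of 0.0235 and an adjusted p of 0.147 (edgeR quasi-likelihood test). With the replicate number as a block Spred2 passed by a small margin (-0.32, adjusted p = 0.0488), and it also passed when no composition factor was used (-0.46, adjusted p = 0.0403). Spred1 (chromosome 2, 117121374 to 117182279) had 14.9, 17.1 and 14.8 CPM in ΔE2, against 16.6, 21.2 and 16.1 CPM in FL. Its groups overlapped through ΔE2 replicate 2 (log2 fold change -0.21, interval -0.52 to 0.11; edgeR quasi-likelihood test, adjusted p = 0.443). Between libraries of equal replicate number Spred1 was lower in ΔE2 in all 3 pairs, with log2 differences of -0.15, -0.31 and -0.12, and it did not pass with the block either (adjusted p = 0.307). Without FL replicate 2 the Spred1 value was -0.07 (adjusted p = 0.879).

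Sprouty proteins are induced by growth factor and antigen receptor signals and damp the Ras and ERK pathway. Spry1 (chromosome 3, 37639947 to 37644598) had 17.5, 18.7 and 23.8 CPM in ΔE2, against 16.0, 21.7 and 15.8 CPM in FL. The groups overlapped, with a log2 fold change of 0.16 (interval -0.16 to 0.49; edgeR quasi-likelihood test, adjusted p = 0.583). The Spry1 value was 0.01 without ΔE2 replicate 3 and 0.33 without FL replicate 2. Spry1 shares 710 exon bases with the opposite-strand gene Gm42922. Spry2 (chromosome 14, minus strand) rested on 14, 11 and 18 reads in ΔE2, against 7, 15 and 14 reads in FL. The groups overlapped, and the log2 fold change of 0.36 had an interval of -0.41 to 1.14 (edgeR quasi-likelihood test, adjusted p = 0.606). With 1 library left out the Spry2 value ranged from 0.11 (without FL replicate 1) to 0.55 (without FL replicate 3).

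In all, of the 10 genes 1 rose (Dusp6), 1 fell (Dusp5) and 8 did not pass, and the median log2 fold change was -0.16. Over all 14632 genes tested, 6.17% passed at an adjusted p under 0.05 (3.75% higher and 2.43% lower in ΔE2), and the median was -0.00434. Without the composition factor the split over all genes was 264 higher and 954 lower. The groups did not overlap for 4 of the 10 genes, against 27.1% of all genes tested. Dusp5 and Dusp6 also passed with the replicate block, where 21.5% of all genes passed, without the composition factor (8.32%), with DESeq2 (7.7%), with the edgeR likelihood ratio test (7.59%) and with limma-voom (4.48%). In the authors' deposited table Dusp5 (log2 fold change -0.66, FDR 6.9e-04) and Dusp6 (0.67, FDR 0.00284) were also the only ones of the 10 under 0.05. Both passed the authors' threshold of 1.5-fold.

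**Figure D4:**
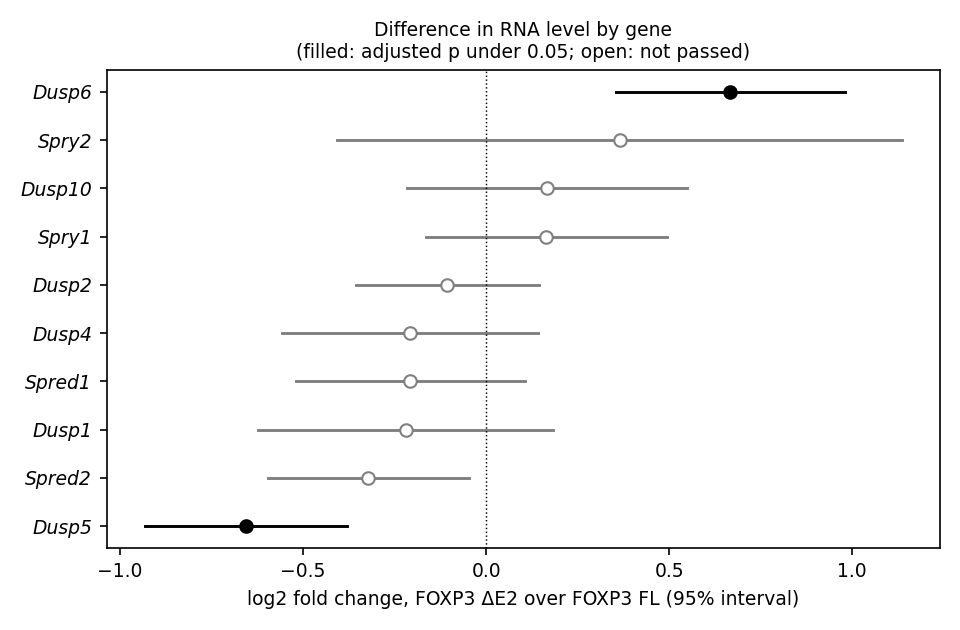
Log2 fold change of each gene, ΔE2 over FL, with its unadjusted 95% interval; filled black points passed an adjusted p under 0.05 and open grey points did not. Dusp6 (0.67) and Dusp5 (-0.66) lie at the ends, Spred2 at -0.32 has an interval that stays below 0, and Spry2 has the widest interval, -0.41 to 1.14.

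The genes whose pattern over the 6 libraries was most like that of Dusp5 were Fbxl22, Cic and Ppp6r1, among 10135 genes with a mean of at least 5 CPM. Likeness was measured as the root mean square difference of log2 CPM centred on each gene's mean, which was 0.0492, 0.0601 and 0.0626 for them. Cic encodes the transcriptional repressor Capicua, and Ppp6r1 a regulatory subunit of protein phosphatase 6. Cic averaged 13.8 ± 2.24 CPM in ΔE2 and 20.8 ± 2.04 CPM in FL. For Dusp6 the 3 nearest genes were Tcrg-C3, Slfn2 and Slfn1, with root mean square differences of 0.0803, 0.0822 and 0.0917. Tcrg-C3 is a constant segment of the T cell receptor gamma locus, and Slfn1 and Slfn2 belong to the Schlafen family. Reads in these families may be shared between similar copies, so their counts are uncertain. Slfn2 averaged 279 ± 47.9 CPM in ΔE2 and 189 ± 18.7 CPM in FL. These genes were picked for their likeness, so their differences are a description.

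Of the wider phosphatase family, 10 of 14 listed genes were tested and 0 passed in either direction, with a median log2 fold change of 0.09. With the smallest p stood Dusp14 at 9.07 ± 1.99 CPM in ΔE2 and 6.74 ± 0.82 CPM in FL (edgeR quasi-likelihood test, adjusted p = 0.200), Dusp7, another phosphatase of ERK, at 9.52 ± 1.10 and 12.4 ± 2.20 CPM (ΔE2 and FL; adjusted p = 0.193), and Dusp28 at 1.21 ± 0.47 and 1.80 ± 0.11 CPM (ΔE2 and FL; adjusted p = 0.319). Spry3, Spry4 and Spred3 were not analysed here. Of the 26 genes listed for the Ras to ERK cascade, 0 rose and 1 fell, and the median log2 fold change was -0.13. The list holds activators and inhibitors of the cascade and kinases downstream of ERK, so its median mixes them. The gene that fell was Mapk3, which encodes the kinase ERK1. Its level was 12.9 ± 2.39 CPM in ΔE2 and 19.6 ± 2.88 CPM in FL (log2 fold change -0.60, edgeR quasi-likelihood test, adjusted p = 0.0334). The Mapk3 call was lost without ΔE2 replicate 2 (adjusted p = 0.195), ΔE2 replicate 3 (0.067), FL replicate 1 (0.131) or FL replicate 2 (0.119), and with limma-voom (0.0553). The adaptor gene Grb2 (log2 fold change -0.42, adjusted p = 0.0552) and the MEK2 gene Map2k2 (-0.41, adjusted p = 0.0748) did not pass. Grb2 lay near the threshold. It passed with upper quartile scaling (0.0445), the filter of 5 CPM in 3 libraries (0.0497), the likelihood ratio test (0.0496) and without ΔE2 replicate 1 (0.0169). It did not pass with DESeq2 (0.0507) or limma-voom (0.0778), and its FDR in the authors' deposited table was 0.0469. Map2k2 passed without ΔE2 replicate 3 (0.0410). With the replicate number as a block 1 gene of this list rose and 6 fell, Grb2 (adjusted p = 9.7e-04) and Map2k2 (0.00288) among them. Without the composition factor 0 rose and 6 fell. Over all genes tested, 6.17% passed in the reported fit, 21.5% with the block and 8.32% without the composition factor (264 higher, 954 lower).

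Of 17 tested genes of the p38 and JNK cascades, 1 rose and 1 fell, with a median log2 fold change of -0.14. Map2k3, a kinase upstream of p38, rose to 115 ± 7.81 CPM in ΔE2, against 85.2 ± 6.35 CPM in FL (0.43, edgeR quasi-likelihood test, adjusted p = 0.0316). Map2k7, a kinase upstream of JNK, fell to 22.0 ± 2.26 CPM in ΔE2, against 30.3 ± 1.81 CPM in FL (-0.46, adjusted p = 0.0367). Mapkapk2, a kinase activated by p38, did not pass (-0.38, adjusted p = 0.109), though it did without ΔE2 replicate 1 (0.0272). The Map2k3 call was lost when any 1 library was left out except ΔE2 replicate 3 (adjusted p = 0.0665 and 0.105 without ΔE2 replicates 1 and 2, and 0.124, 0.055 and 0.136 without FL replicates 1, 2 and 3), and without the composition factor (0.0985). The Map2k7 call was lost without ΔE2 replicate 2 (0.175), with any FL library left out (0.146, 0.119 and 0.065 without replicates 1, 2 and 3) and with limma-voom (0.0532). With the block 2 genes of this list rose and 3 fell, Mapkapk2 among them (adjusted p = 0.00768), and without the composition factor 0 rose and 3 fell. The shares of all genes that passed were 6.17% in the reported fit, 21.5% with the block and 8.32% without the composition factor.

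Among 21 tested immediate early genes and ETS factors that act downstream of ERK, 1 rose and 0 fell, with a median log2 fold change of 0.05. The gene that rose was Egr2, a zinc finger factor of the early response to the T cell receptor, at 99.7, 118.8 and 86.8 CPM in ΔE2, against 51.1, 63.9 and 56.3 CPM in FL (0.83, edgeR quasi-likelihood test, adjusted p = 5.96e-04). Within ΔE2 the order of libraries was the one seen for Dusp6, with replicate 2 highest and replicate 3 lowest. Etv4, an ETS factor often used as a readout of ERK signalling, had 0.46 ± 0.15 CPM in ΔE2 and 1.07 ± 0.070 CPM in FL and did not pass (adjusted p = 0.0736), and neither did the survival gene Mcl1 (-0.35, adjusted p = 0.0889). In the authors' deposited table the FDR was 0.0470 for Etv4 and 0.0813 for Mcl1. Mcl1 passed without ΔE2 replicate 1 (edgeR quasi-likelihood test, adjusted p = 0.0400). With the block 4 genes of this list rose and 4 fell, with Etv4 (adjusted p = 0.0234) and Mcl1 (0.00342) among those that fell. Without the composition factor 1 rose and 2 fell. Of all genes, 6.17% passed in the reported fit, 21.5% with the block and 8.32% without the composition factor.

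Of 15 other genes that restrain receptor signals, 2 rose and 3 fell, with a median log2 fold change of 0.04. Ptpn22, a tyrosine phosphatase that damps T cell receptor signals, rose to 181 ± 21.2 CPM in ΔE2, against 114 ± 5.26 CPM in FL (0.67, edgeR quasi-likelihood test, adjusted p = 0.00241). Cbl, a ubiquitin ligase for activated receptors, fell to 87.4 ± 3.27 CPM in ΔE2, against 124 ± 8.18 CPM in FL (-0.51, adjusted p = 0.0113), and the cytokine signalling inhibitor Socs1 fell to 12.6 ± 1.99 CPM in ΔE2, against 21.5 ± 3.63 CPM in FL (-0.77, adjusted p = 0.0072). The other members that passed were Ubash3a (0.43) and Socs3 (-0.51), named after their values were seen. Calls lost without ΔE2 replicate 2 were those of Cbl (adjusted p = 0.0749), Socs1 (0.0725), Ubash3a (0.132) and Socs3 (0.176). Without FL replicate 1 those of Cbl (0.0568), Socs1 (0.0549), Ubash3a (0.0982) and Socs3 (0.157) were lost, without FL replicate 2 those of Cbl (0.055), Ubash3a (0.107) and Socs3 (0.0661), and without FL replicate 3 that of Ubash3a (0.0805). Ubash3a was also lost without the composition factor (0.0831) and Socs3 with limma-voom (0.0504). With the block 3 genes of this list rose and 4 fell, and without the composition factor 1 rose and 4 fell. Over all genes the share that passed was 6.17% in the reported fit, 21.5% with the block and 8.32% without the composition factor.

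**Figure D5:**
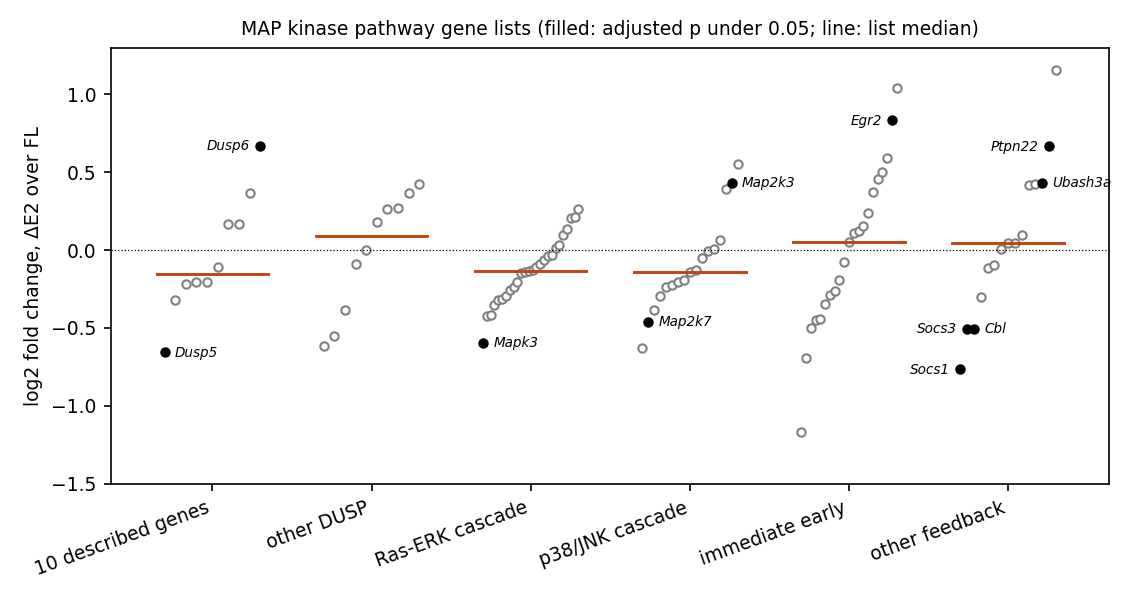
Log2 fold change, ΔE2 over FL, of each tested gene in 6 lists (the 10 described genes first), sorted within each list; filled points passed an adjusted p under 0.05 and carry their names, and red lines are list medians. Dusp6 (0.67) and Dusp5 (-0.66) stand at opposite ends of their list, 0 of the other DUSP genes is filled, and the Ras to ERK cascade has a median of -0.13 with Mapk3 at -0.60.

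The 10 genes had fewer exons than the median gene, and differed in exon number, length and AU-rich sequence. Their coding transcripts had 2 to 7 exons (median 4), against a median of 9 over 10948 tested coding genes (GENCODE M21). Spry1 and Spry2 had 2 exons, and Spred1 and Spred2 had 7. Dusp2 and Dusp1 spanned 2218 and 2930 bases of genome, against a median of 16315 over all genes tested, whereas Dusp10, Spred1 and Spred2 spanned 62335, 60906 and 99652 bases. The pentamer ATTTA, the core of AU-rich elements that mark unstable mRNAs, was densest in the 3' untranslated regions of Dusp2 (6.89 per kb) and Dusp1 (5.80 per kb), against a median of 1.25 per kb over the coding genes. Dusp5 and Dusp6 held 1 copy each, 0.90 and 0.84 per kb, below that median. All the rest of the 10 genes lay above it, from 1.55 per kb (Spred2) up to the Dusp2 value. The median of the 10 was 2.12 per kb. A match is a count of letters, not evidence of an active element.

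Markers of other cell types were low next to the summed T cell and Treg markers, and some differed between libraries. The largest part of that T cell sum was Il2ra (means of 5325 CPM in ΔE2 and 5154 CPM in FL). The 4 tested of 5 B cell markers summed to 14.7 to 33.7 CPM in ΔE2 and 14.8 to 33.5 CPM in FL, and the 2 tested of 5 red cell markers to 3.14 to 5.04 CPM in ΔE2 and 4.32 to 7.19 CPM in FL. The 2 tested of 5 myeloid markers, Lyz2 and Cd68, summed to 8.97 to 22.6 CPM in ΔE2 and 4.52 to 7.86 CPM in FL. The 4 tested of 5 CD8 and NK cell markers summed to 80.4 to 197 CPM in ΔE2 and 45.7 to 83.0 CPM in FL. That sum is not low next to the Treg marker Ikzf2 (means of 50.7 CPM in ΔE2 and 66.1 CPM in FL). Nor is it low next to Dusp6 (54.2 CPM in ΔE2 and 34.1 CPM in FL). Cd8a was 99.2 CPM in ΔE2 replicate 1, and 33.9 and 28.8 CPM in ΔE2 replicates 2 and 3, against 14.9 to 32.7 CPM in FL. Cd8b1 was higher in each ΔE2 library, at 38.9, 24.5 and 22.0 CPM in ΔE2 replicates 1 to 3, against 20.3, 14.0 and 18.3 CPM in FL replicates 1 to 3 (log2 fold change 0.70), and did not pass (edgeR quasi-likelihood test, unadjusted p = 0.00923, adjusted p = 0.0900). In the authors' deposited table Cd8b1 (FDR 0.0190) and Lyz2 (FDR 0.0421) were under 0.05. The other tested markers of other cell types were not, with Cd8a at 0.0550 and Cd68 at 0.0756. Without ΔE2 replicate 1, the log2 fold change was -0.69 for Dusp5 (edgeR quasi-likelihood test, adjusted p = 0.00549) and 0.62 for Dusp6 (adjusted p = 0.0231). That fit keeps ΔE2 replicates 2 and 3, where Cd8b1 also lay above every FL library, so it does not test the part of CD8 cells. Klrk1 was 55.4 CPM in ΔE2 replicate 1, and 23.9 and 29.1 CPM in ΔE2 replicates 2 and 3, against 16.4 to 32.7 CPM in FL. The myeloid marker Cd68 was 7.51 to 8.21 CPM in ΔE2 and 4.34 to 6.09 CPM in FL. Lyz2 was 14.7 CPM in ΔE2 replicate 1, and 2.32 and 0.759 CPM in ΔE2 replicates 2 and 3, against 0.178 to 1.77 CPM in FL. The part of myeloid, CD8 and NK cells in the results was not tested. The other listed markers were not analysed here.

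The authors' deposited tables of enriched terms list Dusp6 in 92 of 1377 terms for genes higher in ΔE2 and Dusp5 in 39 of 339 terms for genes lower in ΔE2, and none of the other 8 genes in any. The terms of the authors' deposited table that hold Dusp6 include the regulation of the ERK1 and ERK2 cascade, with 24 genes, a fold enrichment of 5.65 and an FDR of 5.2e-10. They also include the negative regulation of MAP kinase activity, with 5 genes, a fold enrichment of 3.83 and an FDR of 0.541. No term naming MAPK, ERK or phosphatases in the authors' deposited table held Dusp5.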

How the data were processed

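Gene counts of 6 polyadenylated RNA libraries were analysed. The authors deposited raw counts per gene for 14777 genes, with log2 fold changes, log2 CPM values, p-values and FDR of their own comparison, per the file headers. The log2 CPM values were not used. Per the submitters' processing notes the tools were bcl2fastq, STAR 2.5, featureCounts of Subread 1.5.1 and edgeR 3.20.8, with mm10. No settings were available from the notes. The authors deposited p-values and a ratio (fold enrichment) per enriched term, without naming the tool. By the authors' read statistics, 48.4% to 49.8% of coding reads were sense, so reads carry no strand information.

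Counts were tested with edgeR 4.0.16 in R 4.3.3: filterByExpr (14632 genes kept, 145 left out), TMM, robust glmQLFit and glmQLFTest, a two-sided test with no covariate, Benjamini-Hochberg over all tested genes, threshold 0.05, after the script had been tested on simulated data. The SE is the size of the log2 fold change over the square root of F. An exact permutation test of 3 against 3 cannot go below 0.1, and none was used. CPM per kb divides CPM by the counted gene length. All 10 gene IDs were found in GENCODE M21 (version numbers ignored), which is on the same assembly, and 9 of the genes in the RefSeq promoter table; Dusp4 was not.

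Members and gene lists were chosen with earlier results of these data known. Named genes are the 10 members, the 3 genes with the smallest p of each pathway list, and the 3 nearest in pattern to each member past the threshold.

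Replicate numbers are shared between groups. Deviations from group means correlated across genes at 0.392, 0.207 and 0.185 for equal numbers and at -0.287 to 0.0972 for unequal ones, so equal numbers may mark pairs, an inference from these libraries alone. The reported fit has no block; the blocked fit is an alternative. The blocked fit has 2 residual degrees of freedom and leans on a median of 291 prior ones.

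Alternative scalings were upper quartile, DESeq2 size factors and none for composition. Alternative filters were none and a minimum of 5 CPM in 3 libraries. Other alternatives were blocking on the replicate number, DESeq2 1.42.0, limma-voom (limma 3.58.1), the likelihood ratio test, an adjusted p under 0.01, and each library left out.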

Additional observations from a re-analysis of the deposited data

How the results depend on the processing

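All 10 genes kept the sign of their difference under each of the 15 refits that gave a value (14 for Spry2, which the filter of 5 CPM in 3 libraries removes). The log2 fold change of Dusp5 ranged from -0.79 to -0.56 and that of Dusp6 from 0.52 to 0.83. Of the 10 genes, 0 or 1 rose and 0 or 1 fell with a library left out. With the replicate block 2 fell (Dusp5 and Spred2), likewise without the composition factor, which shifts the median of all genes to -0.14; at an adjusted p under 0.01, 0 rose. The block changed no other call among the 10. Over all genes 548 rose and 355 fell; the block gave 1678 and 1471, no composition factor 264 and 954, an adjusted p under 0.01 184 and 57, and limma-voom 227 lower; leaving out libraries gave 125 to 780 higher and 51 to 587 lower, fewest without ΔE2 replicate 2. Over the pathway lists 4 rose and 5 fell; the block gave 10 and 17, no composition factor 2 and 15, an adjusted p under 0.01 2 and 1, limma-voom 2 lower, and left-out libraries 2 to 5 higher and 0 to 10 lower. A fit without a library has fewer samples, which by itself lowers power, but calls did not fall in every such fit. Without ΔE2 replicate 1, 780 genes rose and 587 fell over all genes, and 10 fell over the pathway lists. Spry2 had 7 to 18 reads per library.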
